A study of Mus musculus with 14 samples.

Results

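The broad domains described here are the sites of trimethylated lysine 27 of histone H3 (H3K27me3) that were at least 10 kb wide on mouse chromosomes 1 to 19. They were selected on their width, End minus Start, in a deposited list of H3K27me3 sites, and 1442 of the 153983 sites of that list met the rule (0.995% of the 144903 autosomal sites, 95% Wilson interval 0.945 to 1.048%). The widths are therefore given as a description and were not tested.

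The sites came from ChIP-seq of immortalised mouse embryo fibroblasts (iMEF). Of the 14 libraries, 12 were H3K27me3 libraries in 6 groups of 2 replicates, a control and cells exposed to dTAG-13 for 30 min, 2 h, 4 h, 8 h or 16 h, and 2 were input chromatin from the control and from 16 h. All groups shared floxed Ash2l alleles with exon 4 deleted through an inducible Cre-ER recombinase, and expressed human ASH2L as the fusion FKBP-HA2-ASH2L from a lentiviral construct. According to the study these ChIP-seq experiments used NG3 cells, which are a single clone. dTAG-13 is a PROTAC that links the FKBP-F36V tag to the ubiquitin ligase subunit Cereblon, which leads to degradation of the fusion protein. The list covers all samples together and gives only a chromosome, a start and an end per site, so no value per library, no treated against control comparison and no depth behind a site can be given. Intervals cover the counting of sites or genes only, and neighbouring sites and clustered genes are not independent.

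H3K27me3 is written by Polycomb repressive complex 2, whose catalytic subunit is Ezh2 or Ezh1, and is found at genes that are held silent. In mammals Polycomb complexes are known to gather at CpG islands, short stretches rich in the dinucleotide CpG, and at developmental regulators that are silent in the cell type at hand. At some loci, of which the Hox clusters are the best known, the mark spreads over many kilobases. ASH2L belongs to the trithorax side, as a subunit of the KMT2 complexes that methylate lysine 4 of histone H3.

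The domains ranged from CpG-rich to CpG-poor sequence. To show this range, the 150 bp window with most CpGs outside annotated exons is printed for the 3 widest domains and for the domains with the highest and the lowest ratio of observed to expected CpG. Sequences are from the + strand of GRCm38.p6, and capitals mark CpG dinucleotides.
Pax2 domain, chr19:44755582-44755731: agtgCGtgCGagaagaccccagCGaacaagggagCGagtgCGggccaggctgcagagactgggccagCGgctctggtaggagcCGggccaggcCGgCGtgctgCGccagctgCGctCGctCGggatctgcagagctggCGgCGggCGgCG
Hoxc domain, chr15:102921936-102922085: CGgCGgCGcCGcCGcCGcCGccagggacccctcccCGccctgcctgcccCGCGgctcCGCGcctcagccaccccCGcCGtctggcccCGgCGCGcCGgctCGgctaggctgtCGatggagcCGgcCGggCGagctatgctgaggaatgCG
Hoxb domain, chr11:96332760-96332909: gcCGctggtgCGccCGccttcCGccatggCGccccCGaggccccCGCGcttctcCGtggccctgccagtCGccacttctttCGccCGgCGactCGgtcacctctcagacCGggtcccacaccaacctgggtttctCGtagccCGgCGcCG
Pou3f3 domain, chr1:42695380-42695529: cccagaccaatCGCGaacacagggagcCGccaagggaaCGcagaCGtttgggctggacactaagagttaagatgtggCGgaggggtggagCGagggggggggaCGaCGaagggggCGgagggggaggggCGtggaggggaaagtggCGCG
domain near Tmem92, chr11:94789736-94789885: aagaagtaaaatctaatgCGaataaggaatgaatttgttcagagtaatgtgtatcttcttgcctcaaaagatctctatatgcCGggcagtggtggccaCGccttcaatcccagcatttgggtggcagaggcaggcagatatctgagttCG
The window of the Pax2 domain held 17 CpGs and lay 388 bp from an annotated transcription start site (TSS) of Pax2, outside protein-coding genes. The Hoxc window held 24 CpGs in an intron of Hoxc13 and the Hoxb window held 19 in an intron of Hoxb3. The Pou3f3 window held 13 CpGs and lay 313 bp from a Pou3f3 TSS. The best window of the domain with the lowest ratio held 4 CpGs, with 56.7% of its bases masked as repeat.

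The domains covered 24.4 Mb, 0.989% of the autosomes, and held 15.6% of the length of all autosomal sites. Their median width was 13883 bp (interval 13613 to 14155 bp), with 25% below 11440.5 bp and 25% above 19085 bp. At least 15 kb was reached by 602 domains, 20 kb by 337, 30 kb by 92 and 50 kb by 22. The members just inside the limit were 10005, 10006 and 10006 bp wide, the third holding the TSS of Gpr4, a proton-sensing receptor. The sites just outside it were 9998, 9996 and 9995 bp wide, with the TSSs of Tcfl5 and Phactr2 in the latter pair.

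**Figure D1:**
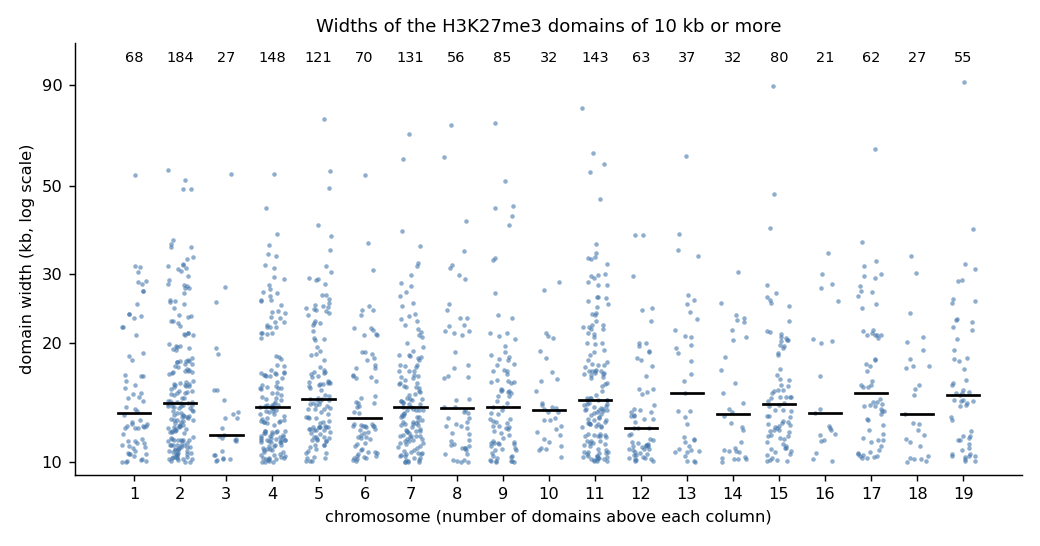
Width of each of the 1442 domains (kb, log scale) by chromosome; each point is a domain, the bar is the median of the chromosome and the number above is its count. Medians sat between 11.7 and 15.0 kb while counts ran from 21 to 184.

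The number of domains differed far more between chromosomes than their width. Chromosome 11 had 1.17 domains per Mb and chromosome 2 had 1.01, whereas chromosome 3 had 0.169 and chromosome 16 had 0.214. The share of a chromosome inside domains followed, from 0.254% on chromosome 3 to 2.11% on chromosome 11. Chromosomes 2, 4, 5, 7 and 11, chosen after their counts were seen, held 727 domains (50.4%) in 30.8% of the autosomal length. The median width stayed between 11.7 kb on chromosome 3 and 15.0 kb on chromosome 17.

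The 3 widest domains lay over Pax2 and the Hoxc and Hoxb genes, all developmental regulators. A gene of the listed factor families was held by 14 of the 100 widest domains (14%, 8.53 to 22.1%) and by 87 of all 1442 domains. Among the 784 domains with a protein-coding TSS the share was 11.1% (9.09 to 13.5%). The 100 widest were not limited to domains with such a TSS, so the 14% is not on that base. Of the 15 widest, 54.4 to 91.3 kb wide, 12 held the TSS of a protein-coding gene. The widest, chr19:44754494-44845773, held Pax2, a paired-box factor of kidney, eye and ear development, and 11 CpG islands. The next was chr15:102914325-103003644 with 8 Hoxc genes, Hoxc13 to Hoxc5, which specify position along the body axis, and 31 islands over 19.99% of its bases. The third was chr11:96279203-96357889 with 7 Hoxb genes, Hoxb8 to Hoxb2, and 30 islands over 23.8% of its bases. These 3 domains thus lay over transcription factor genes, and the Hox pair had the most islands of the 15.

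The other widest domains with a TSS held genes of several kinds. Signalling ligands were present with Wnt3a, in a domain of 56.7 kb, and with Fgf3 and Fgf4 together in 58.6 kb. Further transcription factors were Irf8, a regulator of myeloid cells (71.4 kb), Barx1, a homeobox gene of stomach and jaw development (59.4 kb), and Uncx, a homeobox gene of the somites (54.4 kb). The others held Cacna2d2, an accessory subunit of calcium channels (71.9 kb), Rhcg, an ammonium transporter (67.5 kb), Mgat5b, a glycosyltransferase of the brain (60.4 kb), and Cdh22, a cadherin (54.8 kb). The CpG ratio of these 12 domains ranged from 0.204 at Fgf3 and Fgf4 to 0.355 at Uncx and 0.415 at the Hoxb genes.

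Wide domains without a TSS of a protein-coding gene were also present. The domain chr5:33477731-33551530 was 73.8 kb wide and overlapped no annotated gene. It lay 43.8 kb from a TSS of Nkx1-1, a gene with a TSS in another domain. The domain chr17:27389802-27451784 of 62.0 kb overlapped part of a gene and was nearest to Grm4, a glutamate receptor, at 21.3 kb. The domain chr8:122703555-122762807 of 59.3 kb lay wholly inside the gene model Gm20388 and held TSSs of 2 genes that are not protein-coding. It lay 4.45 kb from the nearest protein-coding TSS, that of Cbfa2t3, a transcriptional corepressor. The widest domains after the first of these with no TSS of any kind were chr19:45110075-45148991 (38.9 kb), 1.69 kb from the homeobox gene Tlx1, and chr5:139652652-139689970 (37.3 kb), 20.3 kb from Micall2.

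Base content set the domains apart from the autosomes and less so from narrower sites. The median GC content of the domains was 50.3% (interval 50.1 to 50.5%), against 48.9% (48.8 to 49.1%) in the 3564 sites of 5 to 10 kb and 47.6% (47.6 to 47.7%) in the 29646 sites of 1 to 5 kb. All autosomal bases together had 41.9%. The ratio of observed to expected CpG had a median of 0.235 (0.231 to 0.241) in the domains, 0.222 (0.220 to 0.225) in sites of 5 to 10 kb and 0.203 (0.202 to 0.204) in sites of 1 to 5 kb, beside 0.194 for all autosomal bases. Pooled over all their bases, the domains had a ratio of 0.260. The intervals of the 3 width classes did not overlap for either measure. This order depends on how sites were split, since domains made by joining sites less than 1 kb apart had medians of 47.7% and 0.217, below those of the sites of 5 to 10 kb as deposited.

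These differences recurred on nearly every chromosome. The median GC content of the domains was above the value of the whole chromosome on 19 of 19 autosomes, and above the sites of 5 to 10 kb on 18. The CpG ratio was above the chromosome on 19 and above the sites of 5 to 10 kb on 17. Bases masked as repeat made up 18.5% of the domains and 33.5% of the autosomes, and the domains were lower on 19 of 19 autosomes. Against sites of 5 to 10 kb, with 19.2%, the repeat content was nearly the same.

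CpG islands were more frequent in the domains than in narrower sites, also per length. Of the domains 66.6% (64.1 to 69.0%) held at least 1 island, against 37.8% (36.2 to 39.4%) of sites of 5 to 10 kb, but a wider site has more room for an island. Under a stricter definition of an island the share of domains was 41.4%. Per length, the domains had 96.1 islands per Mb, sites of 5 to 10 kb had 78.01, sites of 1 to 5 kb had 64.8 and the autosomes had 19.3. Islands covered 6.66% of the domains and 5.21% of sites of 5 to 10 kb. An island was counted where windows of 200 bp had a GC content of at least 50%, a CpG ratio of at least 0.6 and less than 50% masked repeat.

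The highest CpG ratios belonged to narrow domains at genes of the nervous system. Pou3f3, a POU homeodomain factor, lay in chr1:42691232-42701301 with a ratio of 0.738, and islands covered 58.5% of that domain. Neurog2, a proneural basic helix-loop-helix factor, lay in chr3:127625189-127635388 with 0.618, and Pou4f1, a factor of sensory neurons, in chr14:104462849-104475101 with 0.611. These 3 domains were 10.1, 10.2 and 12.3 kb wide and each held the TSS of 1 protein-coding gene. The lowest ratios were 0.0805 and 0.0953 in a neighbouring pair near Tmem92, chr11:94788662-94799291 and chr11:94769872-94781073, and 0.106 in chr8:75193835-75204839 near Rasd2. None of these 3 held an island or the TSS of a protein-coding gene.

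What the domains contained was then taken from the GENCODE M21 annotation, with the TSSs of all transcripts of a gene. A protein-coding TSS lay inside 784 domains (54.4%, 51.8 to 56.9%). A further 222 (15.4%) lay wholly inside the body of a protein-coding gene without touching a protein-coding TSS, 63 (4.37%) overlapped part of such a gene, 121 (8.39%) overlapped only a gene of another kind and 252 (17.5%, 15.6 to 19.5%) overlapped no gene at all. Counting every kind of gene, 923 domains (64.0%) held a TSS. The annotation contains a gene model of 4435 kb on chromosome 8, Gm20388, and it was the only host of 9 of the 222 domains.

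**Figure D2:**
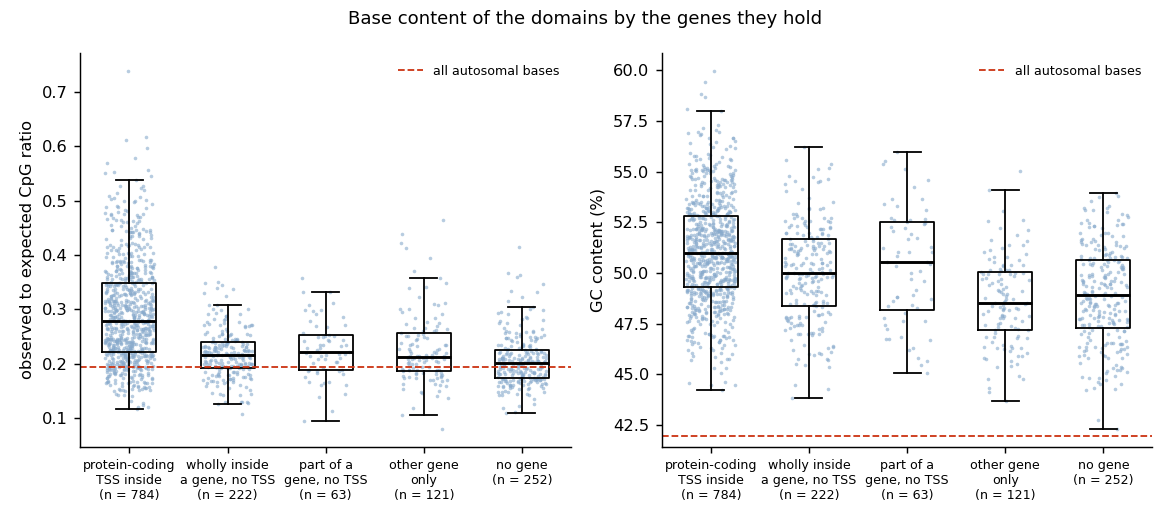
Ratio of observed to expected CpG (left) and GC content in percent (right) of each domain, by the genes it held; points are domains, boxes give the quartiles with the median as a line, whiskers reach 1.5 times the quartile range and the dashed line is the value of all autosomal bases. The median ratio was 0.278 with a protein-coding TSS inside and 0.201 with no gene.

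Domains with a protein-coding TSS were richer in CpG than the rest. Their median CpG ratio was 0.278 (0.269 to 0.288), against 0.216 (0.207 to 0.222) in domains inside a gene body and 0.201 (0.192 to 0.206) in domains without a gene. An island was present in 82.1% (79.3 to 84.7%) of the first class, in 40.5% (34.3 to 47.1%) of the second and in 46.4% (40.4 to 52.6%) of the domains without a gene. The median widths were 14938.5, 12769 and 12656.5 bp. A CpG ratio near that of the autosomes was thus found in the domains that lacked a gene, although their median GC content was 48.9%.

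Among the 1442 domains, 703 held exactly 1 protein-coding gene, 66 held 2, 13 held 3 and 2 held more. After the Hoxc and Hoxb domains, the domains with most genes included chr2:25756086-25787390 with the lipocalin genes Lcn3 and Lcn11 and Gm13539, and chr4:136879844-136907978 with C1qa, C1qb and C1qc, the chains of complement component C1q. The lipocalin domain had a CpG ratio of 0.124 and no island, which sets it against the Hox domains at 0.367 and 0.415. Where 2 genes shared a domain, they lay on opposite strands in 32 of 66 cases.

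Wider domains held a protein-coding TSS more often but had fewer genes per length. The share with such a TSS was 47.1% (43.8 to 50.5%) for 10 to 15 kb, 60.2% (55.5 to 64.8%) for 15 to 25 kb and 74.2% (67.4 to 80.0%) for 25 kb or more. Per Mb the same classes had 41.8, 35.9 and 28.7 protein-coding genes, with a gene counted in each domain that held its TSS. Without such repeat counting, the sites of 5 to 10 kb had 44.0 and all domains had 32.7. These values are thus not on the same base as those of the classes. On that count the domains were above the sites of 5 to 10 kb on only 1 of 19 autosomes. All of these densities were above the autosomes at 8.45 per Mb. Islands per Mb went the other way, from 90.6 to 99.0 and 101.5 across the classes of domains.

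The position of the TSS inside the domain was not symmetric. In the 703 domains with a single protein-coding gene, the domain extended 5.71 kb (5.35 to 6.21 kb) upstream and 9.22 kb (8.78 to 9.60 kb) downstream of the TSS, as medians, and the downstream part was the longer in 66.9% (63.3 to 70.2%). Where a gene had several TSSs inside, the most upstream was used, which lengthens the downstream part. In the 149 domains whose gene had a single annotated TSS, the share was 67.1% (59.2 to 74.1%). In 69.0% of the 703 domains the gene ran on past the end of the domain.

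Islands and TSSs lay toward the middle of the domains. With each domain cut into 10 equal parts, the 4 central parts held 47.0% (44.9 to 49.0%) of 2317 islands and 50.9% (47.2 to 54.6%) of 694 most upstream TSSs. The parts at the ends held 147 and 121 islands, against 292 in the part with most.

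Of the 20807 autosomal protein-coding genes, 797 had a TSS inside a domain (3.83%). For long non-coding genes the share was 3.16% (298 of 9426), for small RNA genes 1.37% (78 of 5704) and for pseudogenes 0.569% (66 of 11594). The protein-coding genes inside had a median length of 18.0 kb (15.8 to 21.6 kb), beside 17.6 kb for all. Their bodies were covered to a median of 70.2%, and 267 genes (33.5%) lay in domains over their whole length. An island at the TSS was present for 66.4% (63.0 to 69.6%) of the genes inside, 60.6% (57.5 to 63.7%) of the 973 genes in sites of 5 to 10 kb only, and 59.1% (58.4 to 59.8%) of all protein-coding genes. Seen from the promoters, 4.30% of genes with an island and 3.15% of genes without lay inside a domain.

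**Figure D3:**
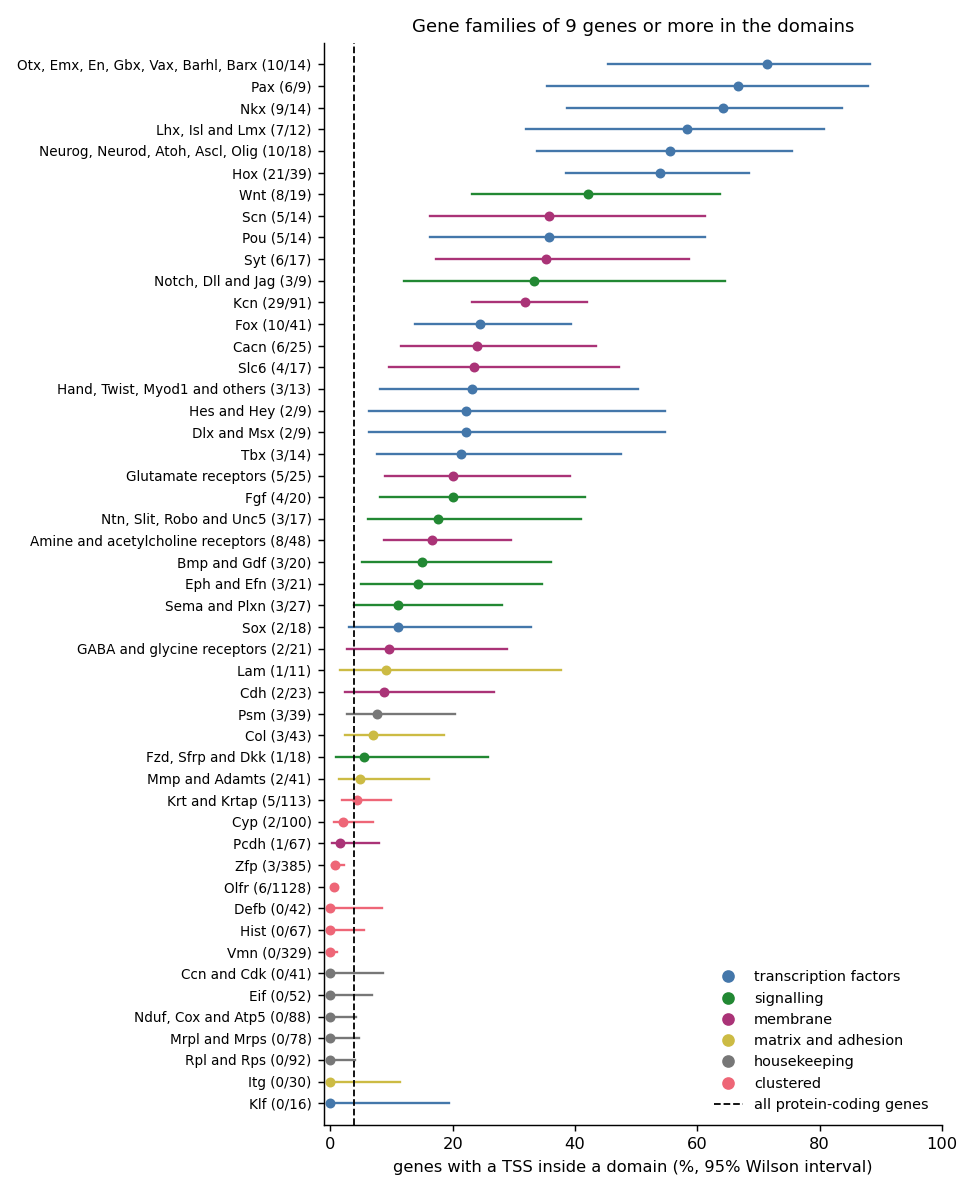
Share of each gene family of at least 9 genes with a TSS inside a domain, in percent, with 95% Wilson intervals; counts stand beside each name, colours give the group and the dashed line is the 3.83% of all protein-coding genes. Homeobox and other developmental families sat at the top, up to 71.4%, and 10 of the families shown sat at 0.

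Gene families were then read against the background of 3.83%. Of 268 genes in 19 families of developmental transcription factors, 100 lay in a domain (37.3%, 31.7 to 43.2%). The shares were 18.5% (28 of 151) for 8 families of signalling proteins and 19.5% (68 of 348) for 10 families of ion channels, receptors and other membrane proteins. Genes of the extracellular matrix and adhesion had 4.80% (6 of 125), close to the background. Housekeeping families had 0.769% (3 of 390) and families of clustered genes 0.739% (16 of 2164), and the intervals of both ended below the background. The lower end of the interval lay above 3.83% for 16 of 19 factor families, 7 of 8 signalling families, 7 of 10 membrane families and none of the 17 others. With genes that had an island at the TSS alone, the shares were 40.2% for factors, 18.3% for signalling, 25.5% for membrane proteins, 5.88% for matrix and adhesion, 0.565% for housekeeping and 0.535% for clustered genes, beside 4.30% of all such genes. These are shares of genes, and clustered genes such as the 21 Hox genes, many of which shared a domain, are not independent of each other.

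Among the transcription factor families of at least 9 genes, homeobox and paired-box families had the highest shares. The families Otx, Emx, En, Gbx, Vax, Barhl and Barx, which pattern the head and nervous system, had 10 of 14 genes in domains (71.4%, 45.4 to 88.3%). Pax genes, paired-box factors of organ formation, had 6 of 9 (66.7%), with Pax7 in 43.9 kb, Pax6 in 30.4 kb and Pax3 in 28.2 kb beside Pax2. Nkx genes had 9 of 14 (64.3%), with Nkx3-2, Nkx2-5, Nkx2-2 and Nkx2-3 in domains of 22.2, 21.2, 20.95 and 18.1 kb. The LIM homeobox genes Lhx, Isl and Lmx had 7 of 12 (58.3%), the widest being the 51.7 kb domain of Lmx1b. In each of these families most genes were inside.

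Other factor families ranged down to 0. The proneural factors Neurog, Neurod, Atoh, Ascl and Olig had 10 of 18 genes inside (55.6%), with Neurod2 in 46.2 kb and Olig2 in 33.9 kb. Irx genes had 3 of 6, with Irx4 in 23.9 kb, and Zic genes had 3 of 4, with Zic2 in 15.0 kb and Zic1 and Zic4 in a shared domain of 12.8 kb. Six3 and Six2, of eye, head and kidney development, lay in domains of 26.4 and 21.5 kb, 2 of the 6 genes of their family. Fox genes, with a forkhead domain, had 10 of 41 (24.4%), with Foxn4, Foxf1, Foxb1 and Foxl2 in the widest. Pou genes had 5 of 14 (35.7%), Gata genes 2 of 5, Tbx genes 3 of 14 and Sox genes 2 of 18 (11.1%), namely Sox10 and Sox14. Of the Dlx and Msx genes 2 of 9 were inside, of Hes and Hey 2 of 9, and of Hand, Twist and the myogenic and mesodermal helix-loop-helix genes 3 of 13, namely Tcf15, Myod1 and Hand2. The 7 Meis and Pbx genes, cofactors of Hox proteins, and the 16 Klf genes had none inside. A limit of 3 genes of the total allows a share of up to 42.9% for Meis and Pbx and 18.8% for Klf. The Wilson intervals ended at 35.4% and 19.4%. Whether the Meis and Pbx limit lay above the 37.3% of all factor genes thus depended on the rule.

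The Hox genes were divided by cluster. A TSS lay inside a domain for 10 of 10 Hoxb genes and 9 of 9 Hoxc genes, for 2 of 9 Hoxd genes and for 0 of 11 Hoxa genes. This split was noticed after the values had been seen.

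Signalling and membrane genes followed with lower shares. Wnt genes had 8 of 19 inside (42.1%, 23.1 to 63.7%), with Wnt9b, Wnt8b and Wnt7a in domains of 29.5, 25.9 and 20.996 kb beside Wnt3a. The Notch family had 3 of 9, all of them ligands, Dll3, Jag2 and Dll4. Fgf genes had 4 of 20 and Bmp and Gdf genes 3 of 20, whereas the Wnt receptors and inhibitors Fzd, Sfrp and Dkk had only Sfrp1 of 18. The axon guidance families had 3 each, of 21 for Eph and Efn, of 27 for Sema and Plxn, and of 17 for Ntn, Slit, Robo and Unc5, with Epha8 in 53.6 kb the widest. Potassium channel genes (Kcn) had 29 of 91 inside (31.9%, 23.2 to 42.0%), among the widest Kcnip3 at 36.6 kb, Kcnt1 at 34.9 kb and Kcnk15 at 31.0 kb. Sodium channel genes had 5 of 14, with Scn2b and Scn4b in a shared domain of 44.4 kb. Synaptotagmins, calcium sensors of vesicle release, had 6 of 17, with Syt7 in 31.8 kb. Calcium channel genes had 6 of 25, glutamate receptor genes 5 of 25, GABA and glycine receptor genes 2 of 21, amine and acetylcholine receptor genes 8 of 48, Slc6 transporter genes 4 of 17 and cadherin genes 2 of 23. Most of these serve excitable cells. Protocadherins, most of which lie in clusters, had 1 of 67, Pcdh1.

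Of the matrix and adhesion families, collagens had 3 of 43 inside, laminins 1 of 11, integrins 0 of 30, and Mmp and Adamts proteases 2 of 41. The collagens were Col26a1, Col2a1 of cartilage and Col13a1, and the interval of the family, 2.40 to 18.6%, spanned the background.

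Housekeeping genes were nearly absent. None of 92 ribosomal protein genes had a TSS inside a domain. This allows a share of up to 3.26% by the limit of 3 genes. The Wilson interval ended at 4.01%, above the background of 3.83%. None of 78 mitochondrial ribosomal protein genes and 88 genes of the respiratory chain and ATP synthase had a TSS inside. The same held for 52 translation factor genes and 41 cyclin and Cdk genes. The 3 genes inside came from the proteasome family. Psmb8 and Psmb9, in a shared domain of 17.7 kb on chromosome 17, encode subunits of the immunoproteasome, a form found in immune cells, and Psmd5 an assembly factor of the proteasome. Among the clustered families, 6 of 1128 odorant receptor genes (Olfr), 5 of 113 keratin genes, 3 of 385 Zfp genes and 2 of 100 Cyp genes were inside, and none of 329 vomeronasal receptor genes (Vmn), 67 histone genes and 42 beta-defensin genes.

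Domains of factor genes had a higher CpG ratio than those of membrane genes or of genes of no listed family. No difference was tested, and the width intervals of factor and membrane domains overlapped. The 87 domains that held a developmental factor had a median width of 19.2 kb (16.4 to 21.2 kb) and a CpG ratio of 0.391 (0.357 to 0.431). The 75 domains with a listed membrane gene had 15.7 kb (14.0 to 19.5 kb) and 0.273 (0.244 to 0.302), and the 587 domains with a gene of no listed family 14.6 kb (14.1 to 15.1 kb) and 0.267 (0.260 to 0.277). Factor genes inside were short, with a median of 5.26 kb, and 66 of 100 lay in domains over their whole length. Membrane genes had a median length of 32.6 kb and 12 of 68 were wholly inside. An island was found in 98.9%, 86.7% and 79.9% of the 3 sets of domains. The factor domains thus had the higher CpG ratio of the 3 sets without a higher GC content. GC content was 50.5%, beside 51.9% for membrane genes and 51.0% for the genes of no listed family. The 30 domains with a signalling gene had a median width of 17.6 kb and a CpG ratio of 0.280 (0.259 to 0.317). The 14 domains with a gene of a clustered family had 13.8 kb and 0.211 (0.160 to 0.375).

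Of 86 marker genes of 7 cell types, 15 had a TSS inside a domain, to be read beside the 3.83% of all protein-coding genes. None of the 18 fibroblast markers, among them Col1a1, Col3a1, Pdgfrb, Thy1 and Vim, had a TSS in a domain or in a site of 5 to 10 kb, but at the share of all genes a list of this length is too short for a count of 0 to stand apart. Of 12 markers of skeletal and cardiac muscle, 5 were inside. They were Myod1, the master regulator of myogenesis, Nkx2-5, a factor of heart development, and the contractile or metabolic genes Myh6, Myl2 and Ckm. Of 11 blood markers 3 were inside, the T cell genes Cd3e and Cd4 and the haematopoietic factor Tal1. Of 10 markers of liver and pancreas 3 were inside, Foxa2, Pdx1 and Ptf1a, all of them transcription factors. The lists for neurons and epithelia had 2 each, Rbfox3 and Gad1, and Cldn7 and Grhl2, and none of 10 endothelial markers was inside. The list of sites holds no expression values, so these counts say where the marked sites lay and not which cells were present.

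Several of the domains held genes of small regulatory RNAs. Of all small RNA genes, 78 of 5704 (1.37%) had a TSS inside a domain, beside the 3.83% of protein-coding genes. The total of miRNA genes was not counted, so their share is not given. The small RNA genes inside included 24 named miRNA genes, and 23 miRNA genes had a mature sequence of RefSeq inside a domain. Those below were picked after the values had been seen because they are known for tissue-restricted expression or lie in Hox clusters. They are printed 5′ to 3′ as given by RefSeq on GRCm38.p6, with the seed, bases 2 to 8, in capitals.
mmu-miR-196a-5p: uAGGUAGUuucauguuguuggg
mmu-miR-10a-5p: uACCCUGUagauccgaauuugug
mmu-miR-615-3p: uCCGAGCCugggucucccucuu
mmu-miR-9-5p: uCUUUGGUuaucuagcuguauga
mmu-miR-7a-5p: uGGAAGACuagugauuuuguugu
mmu-miR-203-3p: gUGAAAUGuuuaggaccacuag
mmu-miR-208b-3p: aUAAGACGaacaaaagguuugu
mmu-miR-200a-3p: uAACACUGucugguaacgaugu
mmu-miR-200b-3p: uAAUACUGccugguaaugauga
The mature miR-196a-5p comes from both Mir196a-2, in the Hoxc domain of 89.3 kb, and Mir196a-1, in a 26.1 kb domain beside the Hoxb genes, so a single seed was covered at both clusters. miR-10a lay in the Hoxb domain and miR-615 in the domain of 26.8 kb that follows the widest Hoxc domain. The neural miR-9 gene Mir9-3 lay in a domain of 23.0 kb, and Mir124a-1 and Mir124a-3 in 22.9 and 14.8 kb. The miR-7a gene Mir7-2 lay in 16.5 kb. miR-203, of the epidermis, lay in 24.5 kb, and the epithelial pair miR-200a and miR-200b together in 10.2 kb. miR-208b, of cardiac muscle, lay in the 20.7 kb domain that held TSSs of Myh6 and Myh7. The miR-200a-3p and miR-200b-3p seeds, AACACUG and AAUACUG, were not the same.

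Of the 298 long non-coding genes inside, 52 had a name of their own. Some that lay beside factor genes or cardiac genes were picked after the values had been seen. They included Hotair in the Hoxc domain, Hoxb5os and Hoxb3os in the Hoxb domain and Vax2os in 53.2 kb. Others were Pax6os1 and Paupar in the 30.4 kb domain of Pax6, Six3os1 in 26.4 kb and Nkx2-2os in 20.95 kb. Mhrt lay in the domain of Myh6 and Myh7. The domain chr12:110252433-110289974 of 37.5 kb held Dio3, a thyroid hormone deiodinase, with Dio3os and Mir1247.

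Some genes were covered by a series of domains. A domain overlapped 942 protein-coding genes, and 66 of these were overlapped by 3 or more. Gm20388 had 17. Of the genes with most domains, named after the counts had been seen, Zbtb16, a zinc finger factor, had 8 domains over 50.8% of its 182 kb, and Pax5, a factor of B cells, had 7 over 63.9% of 186 kb. Of the genes with 6 domains, Cdh22 was covered to 71.7%, Cux2 to 62.9%, Casz1 to 61.2%, Nrg2 to 51.4%, Rnf220 to 42.1%, Megf11 to 26.99%, Rbfox3 to 24.1%, Grik4 to 17.8% and Camta1 to 9.28%, so cover varied widely among them. Such a gene is counted once among the genes inside, although its covered length is split by gaps. The 222 domains inside a gene body without a protein-coding TSS began a median of 36.0 kb (31.8 to 44.4 kb) downstream of the gene start.

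**Figure D4:**
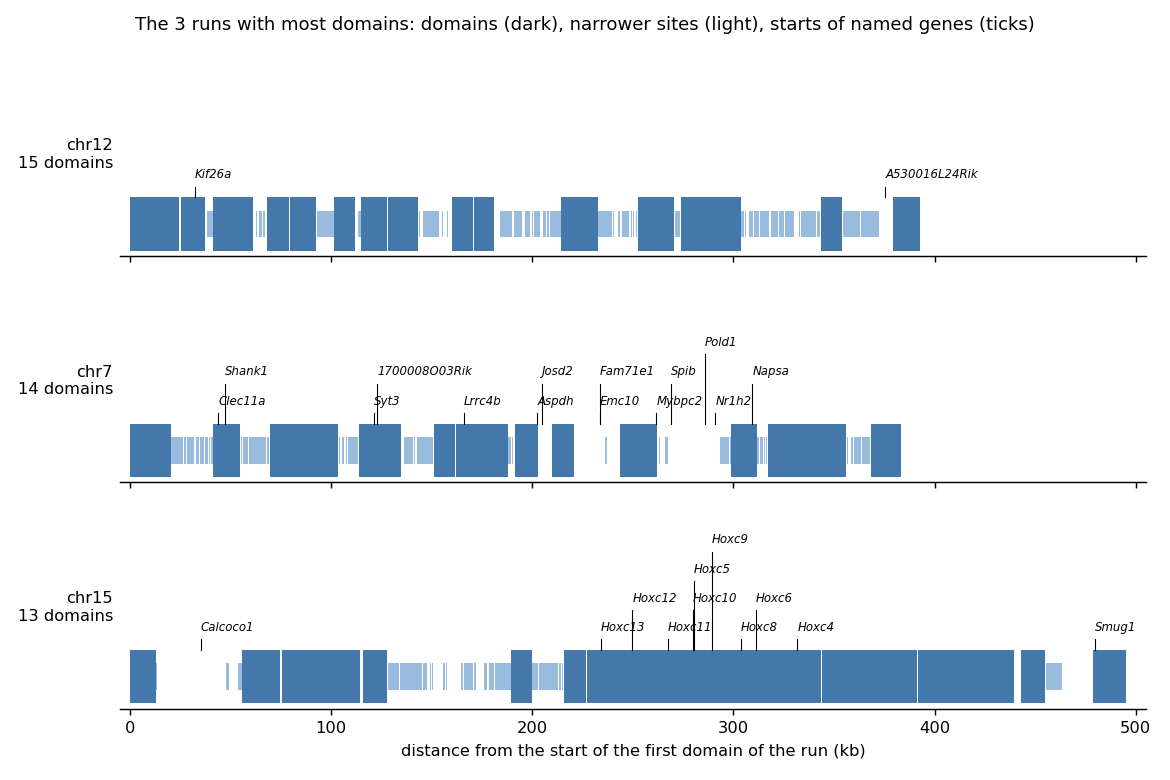
Maps of the 3 runs with most domains, on chromosomes 12, 7 and 15, by distance in kb from the start of the first domain; dark blocks are domains, light blocks are narrower sites and ticks are the most upstream starts of the protein-coding genes named. The domains lay in rows with narrower sites between them, 15, 14 and 13 in a run.

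The domains were grouped along the chromosomes. The median gap between neighbouring domains was 72.7 kb (59.1 to 95.9 kb), with 25% below 11.015 kb, 25% above 762 kb and a range from 37 bp to 54.7 Mb. The gap was under 1 kb in 136 of 1423 cases (9.56%), under 10 kb in 342 (24.0%) and under 100 kb in 751 (52.8%), and 295 (20.7%) were over 1 Mb. With domains less than 100 kb apart taken as a run, 1047 domains (72.6%) fell into 296 runs and 395 stood alone. The 60 runs of at least 5 held 429 domains. Between the domains of a run, 55.8% of the bases were covered by narrower sites, whereas all sites together covered 6.33% of the autosomes. The median gap was 45.3 kb with sites closer than 1 kb joined, and 286 and 575 kb at least widths of 15 and 20 kb.

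The run with most domains had 15 in 393 kb, chr12:112113998-112506859, and covered Aspg and Kif26a, with 87.6% of its bases in some site. A run of 14 on chromosome 7, chr7:44263033-44646570, held Shank1, a postsynaptic scaffold, Syt3, a synaptotagmin, and Lrrc4b. A run of 13 over 495 kb, chr15:102687123-103182301, held the Hoxc cluster with 69.5% of its bases in domains. Among domains with a neighbour on both sides, the most isolated was that of Neurog2, 19.4 Mb from its nearest neighbour on one side and 26.7 Mb on the other. The next were a domain inside Cdhr3, chr12:33072185-33082987, and a domain without a gene, chr4:62764583-62776253. The domains farthest from a protein-coding TSS were 548 and 326 kb from Mki67 on chromosome 7 and 422 kb from Cd83 on chromosome 13. Of the 658 domains without a protein-coding TSS, 213 (32.4%) had one within 10 kb and 49 (7.45%) had none within 100 kb, with a median distance of 17.7 kb.

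The closest neighbours were less than 100 bp apart. The 3 shortest are printed from the + strand with 30 bp of each domain in lower case and the gap in capitals.
gap before Vrtn, chr12:84634818-84634854: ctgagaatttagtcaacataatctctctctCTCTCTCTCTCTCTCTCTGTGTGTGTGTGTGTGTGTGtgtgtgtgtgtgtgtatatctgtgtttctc
gap in Slco2b1, chr7:99693737-99693779: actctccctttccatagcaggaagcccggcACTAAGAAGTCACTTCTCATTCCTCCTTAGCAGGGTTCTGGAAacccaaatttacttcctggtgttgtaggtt
gap between Cryba2 and Ihh, chr1:74912360-74912411: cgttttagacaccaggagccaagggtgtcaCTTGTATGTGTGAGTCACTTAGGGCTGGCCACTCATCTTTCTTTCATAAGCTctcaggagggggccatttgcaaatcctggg
The gap of 37 bp near Vrtn was masked as repeat over 100% of its length. The gaps of 43 bp in an intron of Slco2b1, an organic anion transporter, and of 52 bp in an intron of Cfap65 held no masked base. None of the 3 held a CpG. The domains on either side were 15.1 and 10.99 kb, 11.7 and 17.0 kb, and 23.4 and 53.2 kb wide, the last holding Ihh, a hedgehog ligand.

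Most of the edges of the domains were followed by another site. Of the 2884 edges, 2196 (76.1%, 74.6 to 77.7%) had the next site within 1 kb and 2666 (92.4%) within 5 kb, and 49 (1.70%) had none within 50 kb. The median distance was 440 bp (422 to 458 bp), against 496 bp (480 to 509 bp) for sites of 5 to 10 kb and 1638 bp (1617 to 1657 bp) for sites under 1 kb. The site that followed had a median width of 1382.5 bp (1282 to 1477 bp), was itself a domain at 304 edges (10.5%) and was under 1 kb wide at 1214 (42.1%).

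**Figure D5:**
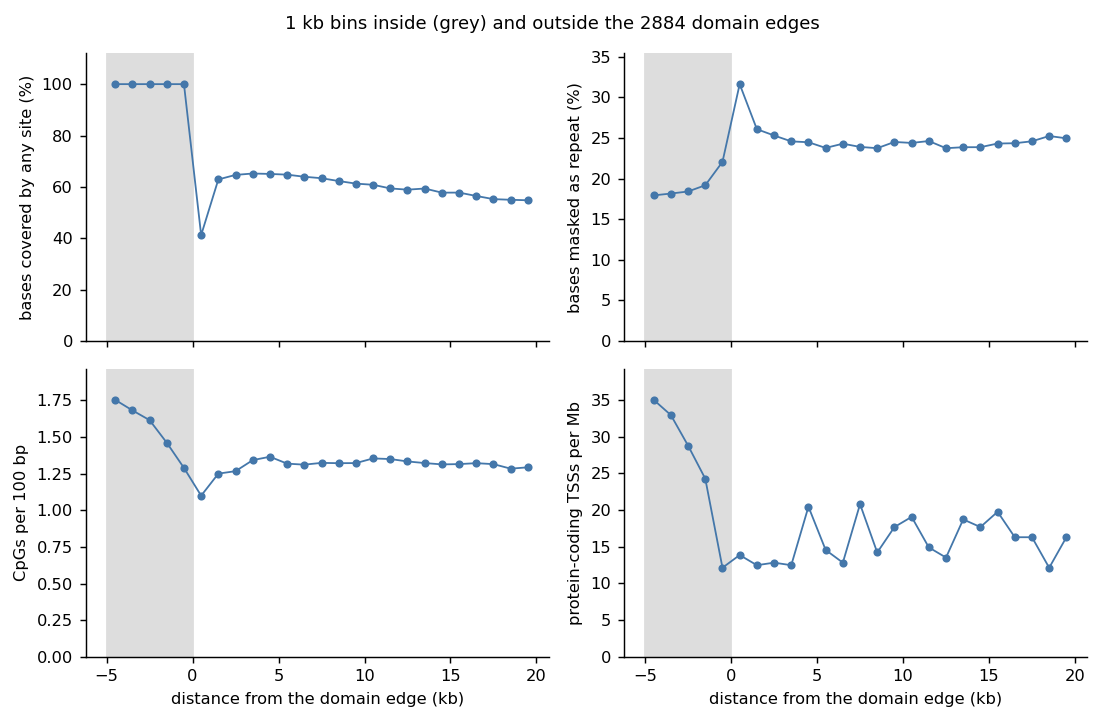
Bases covered by any site, bases masked as repeat (both in percent), CpGs per 100 bp and protein-coding TSSs per Mb in 1 kb bins from 5 kb inside (grey) to 20 kb outside the 2884 domain edges; each point is the pooled value of a bin. Site cover dropped, by construction of an edge, to 41.2% in the bin just outside, and repeats peaked there at 31.6%.

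The bin just outside the edge differed from those on both sides. Its site cover was 41.2%, rising to 62.9% in the next kb and to 65.2% in the 4th, and still 54.8% at 20 kb. A drop in cover just outside is given by construction, since an edge is where a site ends. Masked repeats made up 17.9% of the bases 5 kb inside, 22.1% of the last kb inside, 31.6% of the bin outside and 24.6% of the 4th. CpGs per 100 bp went from 1.75 at 5 kb inside to 1.29 in the last kb, 1.10 in the bin outside and 1.34 in the 4th. The gaps of under 1 kb at the edges had a pooled GC content of 42.5% and 39.2% masked repeat, beside 50.4% and 18.5% in the domains, with a gap between a pair of domains counted at both edges. Whether the placement of reads in repeats had a part in where the sites were broken was not tested.

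TSSs thinned toward the edges from within. There were 35.02 protein-coding TSSs per Mb at 5 kb inside, 12.1 in the last kb inside and 13.9 in the kb outside. An edge lay within 1 kb of a protein-coding TSS in 5.24% (4.48 to 6.11%) of cases, beside 3.83% of all autosomal bases as computed from the same TSSs. Edges lay inside the body of a protein-coding gene in 45.9% and in an exon in 5.34%.

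A protein-coding TSS within the 10 kb outside was found at 705 edges (24.4%, 22.9 to 26.0%), beside 14.3% of autosomal positions looking 10 kb ahead, both with the TSSs of all transcripts. With 1 TSS per gene the share of edges was 14.4%, and the share of positions was not recomputed. At 356 edges (12.3%) the gene had no TSS in any domain, and 204 of these genes (57.3%, 52.1 to 62.3%) were transcribed away from the domain. An island lay at the TSS of 228 of the 356 (64.0%).

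The genes bordering the 15 widest domains were of both kinds, with a TSS in a domain and outside all domains. At 12 of the 30 edges the nearest outside TSS belonged to a gene with some TSS in a domain. Examples were Hoxb9 and Hoxb1 around the Hoxb domain, Foxf1 beyond Irf8 and Fgf15 beyond Fgf4. These 12 include genes of the bordered domain itself, such as Mgat5b, Cacna2d2 and Cdh22. The nearest outside TSS need not itself lie in a domain, as at Mgat5b. At the other 18 edges the nearest outside TSS belonged to a gene outside all domains, at 8.58 to 192 kb. Of these genes 17 had an island. They included Arf1 and Wnt9a around Wnt3a, Ano1, a channel gene and the only one without an island, beside Fgf3, Slc35c2 beside Cdh22, Acsf3 beside the domain near Cbfa2t3, Polg and Ticrr around Rhcg, Cox4i1 beside Irf8 and Slf2 beside Pax2. The next site lay 59 to 3491 bp from these edges and within 1 kb at 22 of them. It was another domain at 13.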

How the data were processed

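H3K27me3 ChIP-seq of iMEF was analysed as 1 list of sites. Per the study's methods and the labels, the authors used Trim Galore for trimming, BWA for alignment to mm10 (GRCm38.p6), SAMtools with the ENCODE filters, Picard to merge replicates and MACS2 in broad mode, and then combined the sites of all samples. Versions, thresholds and the input of the peak calling (single or merged libraries) are not given in the sources used here. The deposited list holds positions and no counts, so the depth per site is unknown. Starts were taken as 0-based and are printed 1-based. There were 0 columns of values per sample that could not be assigned.

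Domains were autosomal sites of at least 10 kb. They were compared with the GRCm38.p6 sequence and GENCODE M21, an earlier release than the study's, using Python 3.11.15 with numpy 2.4.6 and scipy 1.17.1. CpG islands were unions of 200 bp windows with GC of at least 50%, observed to expected CpG of at least 0.6 and under 50% masked repeat, and a promoter island was one within 500 bp of the gene's most upstream TSS. Shares have 95% Wilson intervals and medians binomial order-statistic intervals. For a count of 0 the limit is 3 genes of the total. The functions were tested on simulated data. Members, families and marker lists were chosen with earlier results of these data known. Named were the 15 widest domains with their genes and bordering genes, the 5 with most genes, the 3 at each extreme of CpG ratio, distance, isolation (of domains with a neighbour on both sides), spacing and the 10 kb limit, the run with most domains, up to 4 genes per family and the markers inside. Other names were chosen after the values were seen. Some items that this rule names are not reported here. Alternatives joined sites closer than 1 kb, raised the width to 15 or 20 kb, used 1 TSS per gene, stricter islands, and other distances at the edges.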

Additional observations from a re-analysis of the deposited data

Results flagged for a closer look

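Outside the autosomes, 10 of the 8965 X-chromosomal sites were at least 10 kb wide. This was picked up as a signal in sequence that the account above leaves out. These 10 sites covered 130 kb, with a median width of 12.03 kb and a greatest width of 17.0 kb. The Y chromosome had 0 such sites among 10, and the unplaced sequences had 1 among 105. The list holds no control sites, and the cause was not tested.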

How the results depend on the processing

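No paired analysis was possible from the list used, because its sites come as positions without values for each library. The study also names a list of sites changed at each time against the control, which was not used here. No replicate could be left out and the planned test of change after dTAG-13 was not run. Among the recomputed values 2 stayed within the interval of the value reported and 45 moved, and the cause was not tested. A stricter width leaves fewer domains by its own construction.

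Joining sites closer than 1 kb gave 3642 domains over 78.6 Mb, with a median GC content of 47.7%, a CpG ratio of 0.217 and a median gap of 45.3 kb. A protein-coding TSS lay in 46.8% of them, any TSS in 59.1%, an island in 57.5%, and no gene in 20.5%. They held 8.73% of protein-coding genes and 48.1% of developmental factor genes. At their edges, 20.8% had a protein-coding TSS in the 10 kb outside, and 0.0549% another site within 1 kb, by construction.

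A least width of 15 kb, and then of 20 kb, gave 602 and 337 domains over 14.3 and 9.75 Mb, GC contents of 50.6% and 50.6%, CpG ratios of 0.241 and 0.242, and median gaps of 286 and 575 kb. A protein-coding TSS lay in 64.5% and 68.0%, any TSS in 73.3% and 78.3%, an island in 77.7% and 83.1%, and no gene in 13.8% and 9.50%. They held 2.07% and 1.283% of protein-coding genes and 25.7% and 20.1% of factor genes. Another site lay within 1 kb of 79.1% and 79.2% of edges, and at 20 kb a TSS lay in the 10 kb outside at 22.4%.

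With 1 TSS per gene, a protein-coding TSS lay in 43.0% of domains, any TSS in 54.2%, 3.34% of protein-coding genes were inside and 14.4% of edges had a TSS in the 10 kb outside. Stricter islands were found in 41.4% of domains. The next site lay within 5 kb at 92.4% of edges, and a TSS in the 5 kb outside at 13.3%. The unknown number of reads per site limits what the widths can carry.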
